A study of Mus musculus with 10 samples.

Results

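Mitochondrial fatty acid oxidation was followed through 37 named genes in the aorta of male Npas2 mutant mice and male wild-type mice. The genes cover uptake and activation of fatty acids, the carnitine shuttle, the beta-oxidation spiral, the electron transfer flavoprotein and the control by malonyl-CoA. Each was read on a single probe set, the one with the highest mean over all 10 arrays among those that the platform annotation gives to that gene alone. By this rule 35 of the 37 genes had a probe set and 34 were bright enough to test, out of 10945 genes tested in all. Acsl6 had a probe set but was too dim. Cpt1b and Acsl1 had no probe set annotated to them alone, so their levels were not analysed here.

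The mutant group held 5 arrays (F12, F13, F18, F19 and F20), from mice with an NPAS2 mutation on a C57Bl/6J background. The wild-type group held 5 arrays (F11, F14_2, F15, F16 and F17), from C57Bl/6 mice. The strain names differ between the groups, so genotype and strain name cannot be told apart in these arrays. Both genotypes had 2 weeks or more of 12 h light alternating with 12 h dark, then 30 h or more of constant darkness, and were killed at a time that the labels give as zeitgeber time 14 h, the only one sampled. Neither the kind of mutation nor the animals' age is given in the sources used here, and the labels do not tie each array to its own mouse. The p-values therefore cover the spread among arrays, which may be in part technical. The tissue is called thoracic aorta in one label, while the extraction protocol describes a longer piece reaching past the femoral branching. Values are log2 levels, on which a difference of 1 is a doubling, and every difference below is mutant minus wild type.

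Mitochondria burn fatty acids in a fixed sequence. A fatty acid is joined to coenzyme A, carried through the inner membrane as an acylcarnitine, and then shortened by repeated rounds of dehydrogenation, hydration, a further dehydrogenation and thiolytic cleavage, with the electrons of the first step passed on through the electron transfer flavoprotein. The pathway is most active in brown fat, heart and oxidative muscle, and brown fat lies around the thoracic aorta of the mouse. NPAS2 is a clock transcription factor that pairs with BMAL1 and binds E-box motifs in DNA.

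Because NPAS2 binds E-boxes and the pathway's genes are known targets of the nuclear receptors PPAR alpha and ERR alpha, the promoter windows of the members were searched for their motifs. Each window ran from 250 bases before to 50 bases after an annotated start, taken from RefSeq on the mouse assembly GRCm38.p6, and 34 windows of 31 members were found. Acsl1, whose level was not analysed, is among these 31. Crat, Acad9, Acaa2, Decr1, Acot13 and Cpt1b had no window used here. The E-box CACGTG was in 0 of the 34 windows, against 7.15% of all 32851 windows of this length. Its variant CACGTT was in 1 window, that of Acacb, against 4.68% of all. The half-site AGGTCA of nuclear receptors was in 6 windows (Acacb, Acadm, Acadvl, Acsl6, Cpt1a and Echs1), which is 17.6% against 16.3% of all. The longer element TCAAGGTCA, which contains that half-site, was in 1 window, of Acsl6, against 0.423% of all. A direct repeat of the half-site with 1 base between its copies was in 0 windows, against 0.0396% of all. Both strands were searched, and a missing match says only that these letters are not in this window. The bases before the start are shown for Acad11 and Slc25a20, the members with the smallest adjusted p-values, and for Acadm and Acacb, which hold a match, with motif letters in capitals. In Acacb the half-site lies after the start and is not shown.
Acad11, chr9:104063474-104063723, plus strand: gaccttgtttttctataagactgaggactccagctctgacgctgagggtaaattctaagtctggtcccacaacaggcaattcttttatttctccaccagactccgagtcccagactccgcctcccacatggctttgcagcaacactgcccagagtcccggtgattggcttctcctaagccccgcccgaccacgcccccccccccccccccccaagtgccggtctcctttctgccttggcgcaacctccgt
Slc25a20, chr9:108661886-108662135, plus strand: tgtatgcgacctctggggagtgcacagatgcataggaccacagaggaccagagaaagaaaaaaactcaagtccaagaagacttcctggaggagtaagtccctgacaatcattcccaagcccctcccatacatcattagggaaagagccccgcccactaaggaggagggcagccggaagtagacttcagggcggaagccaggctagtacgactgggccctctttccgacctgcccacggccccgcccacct
Acadm, chr3:153944644-153944893, minus strand, half-site in capitals: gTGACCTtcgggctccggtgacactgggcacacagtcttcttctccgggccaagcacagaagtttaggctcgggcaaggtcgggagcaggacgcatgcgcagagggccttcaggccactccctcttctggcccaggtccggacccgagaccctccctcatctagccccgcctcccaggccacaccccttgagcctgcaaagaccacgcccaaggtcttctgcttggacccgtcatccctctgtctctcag
Acacb, chr5:114165268-114165517, plus strand, CACGTT on the opposite strand in capitals: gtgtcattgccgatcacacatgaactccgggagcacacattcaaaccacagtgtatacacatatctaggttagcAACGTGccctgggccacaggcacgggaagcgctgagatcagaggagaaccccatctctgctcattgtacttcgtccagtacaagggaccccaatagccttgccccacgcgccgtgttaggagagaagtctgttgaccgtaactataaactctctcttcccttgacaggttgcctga

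Most members stood slightly higher in the mutant, and 1 of them, Acad11, passed the test. Of the 34 tested members 32 had a higher mean in the mutant aortas, whereas 44.1% of all tested genes did. The median change of the members was 0.23 on the log2 scale, beside -0.02 over all tested genes, with a range from -0.11 (Acad8) to 0.87 (Fabp3). The test was limma across 22340 probe sets with Benjamini-Hochberg adjustment and a threshold of 0.05, which called 0.215% of all probe sets in either direction and 0.094% as higher. At an unadjusted p of 0.05 it took 12 of the 34 members, all higher, beside 4.75% of all probe sets that were higher and 15.3% in either direction. The 5 mutant arrays lay wholly above the 5 wild-type arrays for 3 members (Acad11, Slc25a20 and Acot2), beside 1.5% of all probe sets, or 4.01% counting both directions. For 16 members the SD over the mutant arrays alone was larger than the difference between the groups.

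**Figure D1:**
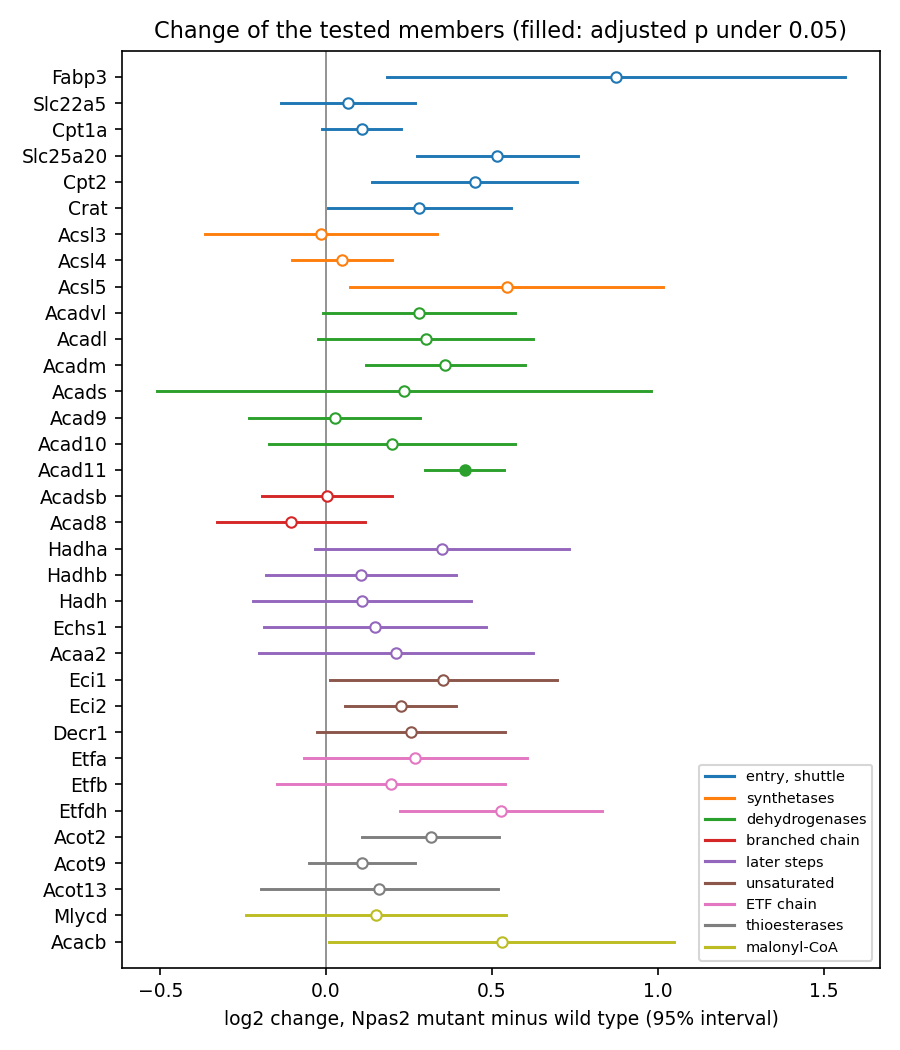
Log2 change (mutant minus wild type, horizontal axis) of each of the 34 tested members, with 95% intervals from the limma fit and n = 5 arrays per group; colours mark roles and a filled point an adjusted p under 0.05. Points of 32 members lie right of 0, and Acad11 alone is filled, with an interval of 0.30 to 0.54.

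Members varied together across arrays within each genotype. Among the mutant arrays F12 or F13 had the highest level for 29 of the 34 members, and F18 or F19 the lowest for 27. Among the wild-type arrays F14_2 was the highest for 19 members and F17 the lowest for 21. The mean over the tested members was 9.21 on F12, 9.18 on F13, 8.75 on F18, 8.78 on F19 and 8.96 on F20 in the mutant, against 8.72 on F11, 8.92 on F14_2, 8.77 on F15, 8.66 on F16 and 8.55 on F17 in wild type. The groups overlapped on this mean: F18 and F19 lay below the wild-type array F14_2, and F18 also below F15. Single members followed the same order, with 23 of the 34 lower on the mutant array F18 than on the wild-type array F14_2.

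**Figure D2:**
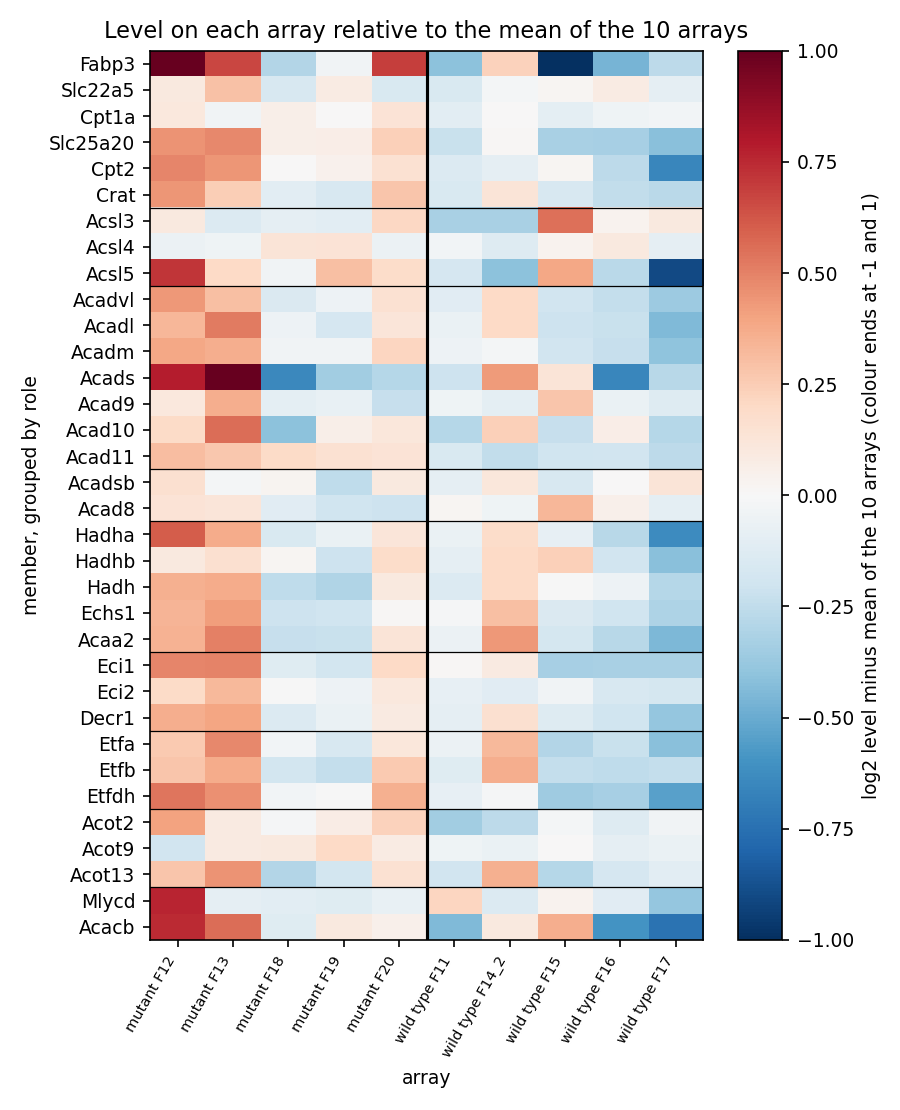
Level of each tested member (rows, grouped by role) on each of the 10 arrays (columns, mutant left of the line), as the log2 difference from that member's mean over all arrays. Mutant F12 and F13 are red in most rows and wild-type F17 is blue in most, while Acad11 is evenly red on all 5 mutant arrays and blue on all 5 wild-type arrays.

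The first role is entry: a cytosolic carrier, the carnitine transporter and the carnitine shuttle. All 6 measured members of this role had a higher mean in the mutant (median change 0.36), 4 of them at an unadjusted p under 0.05, and 0 passed the adjusted test. Slc25a20, the carnitine-acylcarnitine carrier of the inner membrane, had log2 levels of 10.88, 10.92, 10.49, 10.50 and 10.68 in the mutant, against 10.22, 10.45, 10.11, 10.10 and 10.02 in wild type. Every mutant array was above every wild-type array, by a narrow margin between mutant F18 and wild-type F14_2. The change was 0.52 ± 0.11 (SE, n = 5 per group), or 1.43-fold, with a limma adjusted p of 0.0942. Its second probe set had a change of 0.62 and an adjusted p of 0.158.

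Cpt2, the carnitine palmitoyltransferase on the matrix side that returns the acyl group to coenzyme A, had levels of 9.64, 9.59, 9.16, 9.20 and 9.30 in the mutant, against 9.02, 9.06, 9.17, 8.89 and 8.50 in wild type. Only F18 of the mutant arrays lay below the highest wild-type array. Its change was 0.45 ± 0.14 (SE), with a limma adjusted p of 0.184. Fabp3, a cytosolic fatty acid carrier of heart, muscle and brown fat, had the largest change of all members and a wide spread, with 10.74, 10.26, 9.29, 9.55 and 10.28 in the mutant, against 9.17, 9.82, 8.31, 9.12 and 9.32 in wild type. The groups overlapped. Its difference of 0.87 ± 0.31 (SE) did not pass, at an adjusted p of 0.229 by limma.

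Crat, which moves short acyl groups between carnitine and coenzyme A, had a change of 0.28 (adjusted p = 0.316). Slc22a5, the plasma membrane carnitine transporter, had a change of 0.07 with an interval of -0.14 to 0.27. A second, dimmer probe set of Slc22a5 had one of 0.26 (limma adjusted p = 0.409). Cpt1a, the liver-type form of the rate-limiting outer membrane transferase, gave no single answer. The chosen probe set had a change of 0.11 (limma adjusted p = 0.363) and another one of 0.23 (0.301), while a further one had a change of -0.25 (0.366).

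Acyl-CoA synthetases activate the fatty acid. Acsl5, the form found on mitochondria and endoplasmic reticulum, had levels of 8.82, 8.30, 8.07, 8.40 and 8.29 in the mutant, against 7.94, 7.70, 8.49, 7.83 and 7.20 in wild type. Wild-type F15 stood above 4 of the 5 mutant arrays, so the groups overlapped. The change was 0.55 ± 0.21 (SE), with a limma adjusted p of 0.262. Acsl3 (-0.01, interval -0.36 to 0.34) and Acsl4 (0.05, interval -0.10 to 0.20), enzymes of lipid droplets and of arachidonate, had changes close to 0. Acsl6 was not bright enough for the fit, at 2.98 to 3.06 in the mutant and 2.95 to 3.05 in wild type, with p = 0.468 by exact permutation of the arrays (two-sided, n = 5 per group).

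Acyl-CoA dehydrogenases carry out the first step of each round and differ in the chain length they prefer. Acad11 was the called member, and it rose 1.34-fold. Its levels were 9.67, 9.63, 9.55, 9.51 and 9.50 in the mutant, against 9.21, 9.12, 9.16, 9.18 and 9.11 in wild type. The lowest mutant array was well clear of the highest wild-type array, and the SD was 0.07 in the mutant and 0.04 in wild type (n = 5 each). The change was 0.42 ± 0.05 (SE) with an interval of 0.30 to 0.54 and a limma adjusted p of 0.0235. ACAD11 acts on hydroxylated and long acyl chains and has been found in peroxisomes as well as mitochondria. The suffix of its probe set, _s_at, marks probes shared between transcripts. Its other probe set also separated the groups, with a change of 0.38 and an adjusted p of 0.0583. Acad11 was called in 6 of the 10 fits that left out an array, and its adjusted p was 0.0596, 0.0650, 0.0625 and 0.0593 without mutant F12, wild-type F15, wild-type F16 and wild-type F17.

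The classical straight-chain enzymes did not pass. Acadm, the medium-chain dehydrogenase, had levels of 12.29, 12.26, 11.86, 11.86 and 12.11 in the mutant, against 11.84, 11.88, 11.70, 11.66 and 11.49 in wild type. The 2 lowest mutant arrays sat level with the 2 highest wild-type arrays, and the change was 0.36 ± 0.11 (SE, limma adjusted p = 0.177). For Acadl, the long-chain enzyme, the levels were 12.27, 12.46, 11.89, 11.78 and 12.07 in the mutant, against 11.87, 12.14, 11.73, 11.72 and 11.50 in wild type. Its groups overlapped more, with a change of 0.30 ± 0.15 (SE, limma adjusted p = 0.354). Acadvl, the very long-chain enzyme of the inner membrane, had a change of 0.28 (adjusted p = 0.335).

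Acads, the short-chain enzyme, was the most uneven of this role, with 7.64 and 7.94 on mutant F12 and F13 but 6.22 to 6.58 on the other 3 mutant arrays, against 6.20 to 7.28 in wild type. Its change of 0.23 had an interval of -0.51 to 0.98, and it became -0.01 without mutant F13. Acad10 (0.20) and Acad9 (0.03), which is also an assembly factor of respiratory complex I, had adjusted p-values of 0.573 and 0.931. The branched-chain enzymes of amino acid breakdown had no difference larger than their spread. Acadsb had levels of 8.06, 7.88, 7.93, 7.65 and 8.00 in the mutant, against 7.81, 8.02, 7.74, 7.90 and 8.03 in wild type, a change of 0.00 with an interval of -0.19 to 0.20. Acad8 had a change of -0.11 on its chosen probe set (adjusted p = 0.622) and of 0.09 on another (0.765).

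The later steps of the spiral are hydration, the second dehydrogenation and thiolysis. All 5 members had a higher mean in the mutant (median change 0.15), with 0 at an unadjusted p under 0.05 in the limma fit and so 0 called. Hadh, the hydroxyacyl-CoA dehydrogenase of shorter chains, had levels of 13.24, 13.26, 12.63, 12.58 and 12.98 in the mutant, against 12.75, 13.09, 12.88, 12.84 and 12.60 in wild type. Mutant F18 and F19 lay below 4 and all 5 of the wild-type arrays, and the change of 0.11 had an interval of -0.22 to 0.44. Hadha and Hadhb encode the alpha and beta subunits of the trifunctional protein, which works on long chains. Their changes were 0.35 (interval -0.03 to 0.73) and 0.10 (interval -0.18 to 0.39). Other probe sets of Hadhb had changes of 0.17 and 0.39 (limma adjusted p = 0.609 and 0.307). The latter, much dimmer, had an unadjusted p of 0.0434. Echs1, the short-chain hydratase (0.15), and Acaa2, a thiolase (0.21), had adjusted p-values of 0.651 and 0.592.

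Unsaturated fatty acids need extra isomerases and a reductase. Eci1 and Eci2, enoyl-CoA isomerases, had changes of 0.35 and 0.22 with unadjusted limma p-values of 0.0439 and 0.0130, but adjusted p-values of 0.309 and 0.206. Decr1, the dienoyl-CoA reductase, had levels of 10.58, 10.61, 10.08, 10.15 and 10.31 in the mutant, against 10.13, 10.38, 10.09, 10.01 and 9.83 in wild type. Its change was 0.26 ± 0.13 (SE, limma adjusted p = 0.364), with F18, F19 and F20 at or below the highest wild-type array.

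The electron transfer flavoprotein passes electrons from the dehydrogenases to its own oxidoreductase, Etfdh, and on to ubiquinone. Etfdh had levels of 10.43, 10.35, 9.87, 9.89 and 10.25 in the mutant, against 9.82, 9.89, 9.54, 9.56 and 9.36 in wild type. Only mutant F18 and wild-type F14_2 crossed, by a small amount. The change was 0.53 ± 0.14 (SE), or 1.44-fold, with a limma adjusted p of 0.136. For Etfa, the alpha subunit, the levels were 11.58, 11.81, 11.30, 11.16 and 11.43 in the mutant, against 11.26, 11.64, 11.03, 11.10 and 10.91 in wild type. Wild-type F14_2 was above 4 of the 5 mutant arrays, and the changes of Etfa and of the beta subunit Etfb were 0.27 and 0.20 (adjusted p = 0.412 and 0.549).

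**Figure D3:**
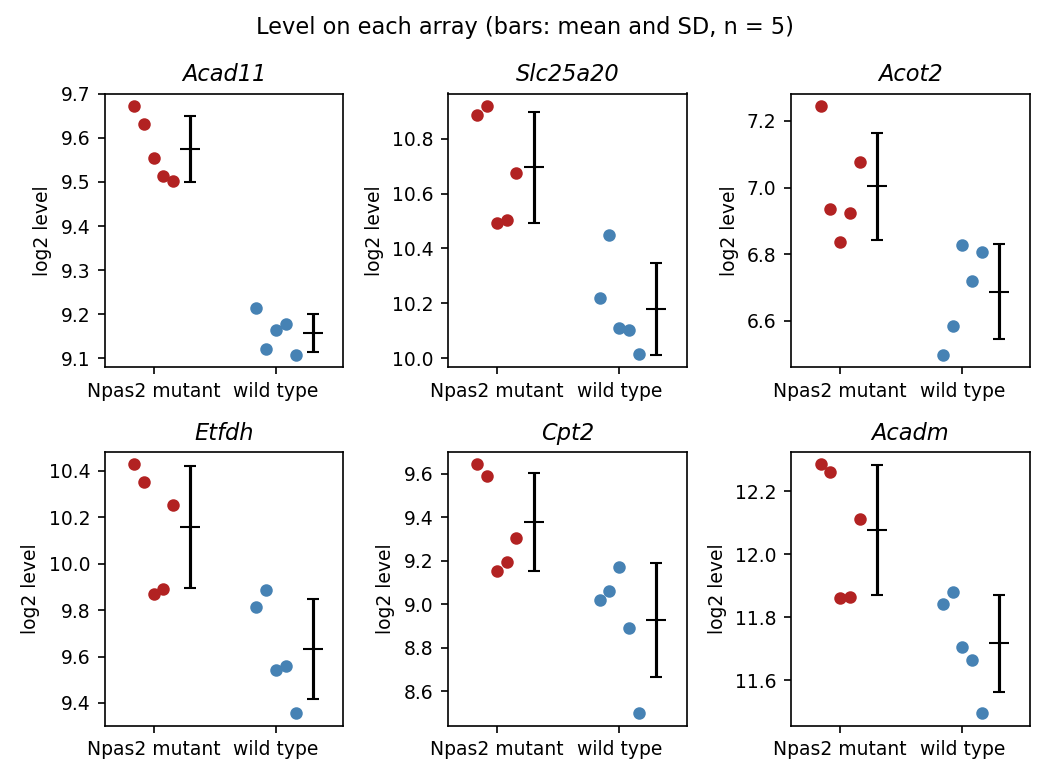
Log2 level on each array (points) with mean and SD (bars, n = 5) for 6 members, mutant left and wild type right, each panel on its own vertical axis that does not start at 0. The groups are apart for Acad11, Slc25a20 and Acot2, and overlap for Etfdh, Cpt2 and Acadm, where 2 mutant arrays lie close to the wild-type range.

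Thioesterases release free fatty acids from coenzyme A. Acot2, the matrix enzyme, had levels of 7.25, 6.94, 6.84, 6.92 and 7.08 in the mutant, against 6.50, 6.59, 6.83, 6.72 and 6.81 in wild type. The groups did not overlap, though mutant F18 and wild-type F15 were nearly equal. The change was 0.32 ± 0.09 (SE, limma adjusted p = 0.172), while its second, dim probe set had one of -0.17 (adjusted p = 0.503). Acot2 has a near-identical neighbour, Acot1, and how far the probes also read it was not tested. Acot13 had levels of 8.87, 9.04, 8.30, 8.40 and 8.74 in the mutant, against 8.40, 8.95, 8.30, 8.42 and 8.48 in wild type. Its overlap was nearly complete, and Acot13 and Acot9 had changes of 0.16 and 0.11 (adjusted p = 0.641 and 0.478).

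Malonyl-CoA restrains entry by inhibiting the outer membrane transferase. Acacb, the acetyl-CoA carboxylase that makes malonyl-CoA at the mitochondrial surface, had levels of 8.91, 8.72, 8.04, 8.27 and 8.22 in the mutant, against 7.73, 8.27, 8.53, 7.57 and 7.43 in wild type. Wild-type F15 and F14_2 lay within the mutant range, and the change was 0.53 ± 0.24 (SE, limma adjusted p = 0.316). Mlycd, the decarboxylase that removes malonyl-CoA, had a change of 0.15 (adjusted p = 0.695), with 5.36 on mutant F12 and 4.47 to 4.51 on the other 4 mutant arrays, against 4.21 to 4.81 in wild type.

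Other genes of fatty acid handling were read from a list of 30, of which 27 could be tested. None passed the limma adjusted test in either direction, 8 had an unadjusted p under 0.05, all higher in the mutant, and 25 had a higher mean (median change 0.11). Those with the smallest p-values were Mcee, an epimerase of propionate breakdown (0.48 ± 0.10 SE, limma adjusted p = 0.0962), and Acat1, the thiolase of ketone bodies and isoleucine (0.32 ± 0.07, 0.121). They were followed by Ucp3, an uncoupling protein homologue (0.45 ± 0.11, 0.125), and Hsd17b10, a short-chain hydroxyacyl dehydrogenase (0.37 ± 0.09, 0.127). Of the transcriptional regulators in the list, Esrra, the gene of ERR alpha, had a change of 0.32 (limma adjusted p = 0.324) and Ppargc1b, a coactivator, one of 0.43 (0.347). Ppara had a change of -0.20 (0.769), Ppard one of 0.04 (0.745), and the coactivators Ppargc1a and Lpin1 had changes of 0.02 (0.984) and -0.01 (0.985). Peroxisomal beta-oxidation, with 14 tested genes, had 2 called as higher, Acaa1b (1.08, limma adjusted p = 0.0308) and Ehhadh (0.81, 0.0438), with Scp2 (0.26, adjusted p = 0.124) and Abcd3 (0.30, adjusted p = 0.150) next. Of these 14 genes, 12 had a higher mean, with a median change of 0.28. An unadjusted limma p under 0.05 was reached by 8, all higher, beside 4.75% of all probe sets. The mutant arrays lay wholly above wild type for 4, beside 1.5% of all probe sets.

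Genes of general mitochondrial function were set beside the members. The 17 genes were of the citrate cycle, respiratory chain and carriers, with Vdac1 and Tfam besides, and all 17 averaged higher in mutant aortas. Their median change was 0.20, with 2 at an unadjusted p under 0.05 and 0 called by limma. Cox5a, a subunit of cytochrome c oxidase, had a change of 0.32 (adjusted p = 0.182) and Idh3a, of the citrate cycle, one of 0.34 (adjusted p = 0.265), followed by Mdh2 (0.20, 0.329) and Uqcrc2 (0.28, 0.341). The mean of these genes lay at 11.03 to 11.55 on the mutant arrays and at 10.86 to 11.33 on the wild-type arrays, with F12 highest in the mutant and F14_2 in wild type. With this mean as a covariate, 22 of the 34 members had a change above 0 and the median change was 0.04. Acad11 then had a change of 0.38 ± 0.06 (SE, limma adjusted p = 0.0748), Slc25a20 one of 0.33 ± 0.06 (adjusted p = 0.134) and Etfdh one of 0.28 ± 0.07 (adjusted p = 0.231). Hadha had one of 0.03 and Acads one of -0.30.

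Markers of tissues that burn fat also differed between the arrays. The 10 tested brown fat markers had a mean level of 8.48 to 8.80 in the mutant, against 7.71 to 8.22 in wild type, with no overlap. None was called, 6 had an unadjusted limma p under 0.05, all higher, and the median change was 0.51. The smallest p-values were those of Elovl3, a fatty acid elongase (2.57, limma adjusted p = 0.111, no overlap), and Slc27a2, a fatty acid transporter with acyl-CoA synthetase activity (0.73, 0.121). Ucp1, the uncoupling protein of thermogenic fat (0.996, 0.121), and Dio2, the deiodinase that activates thyroid hormone (0.78, 0.155), came next. Of the 10 markers Elovl3 alone separated the groups, and with the largest change it weighs most in their unscaled mean. The mean without Elovl3 was not computed. Prdm16, Lhx8 and Ebf2 had lower means in the mutant, with changes of -0.27, -0.11 and -0.02. The developmental marker Zic1 was too dim to test. With the brown fat mean as a covariate, 10 of the 34 members had a change above 0 and 24 below, with a median of -0.25. This fit called 0 of all 22340 probe sets, members included, and took 2 members at an unadjusted p under 0.05 (Acad11 at 0.29 ± 0.12 and Hadha at -0.60 ± 0.23, SE). Standard errors were 1.97 times as large in the median, and this mean correlated with the genotype at 0.896 over the 10 arrays. In a whole piece of tissue, more cells of a type and more RNA per cell cannot be told apart.

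**Figure D4:**
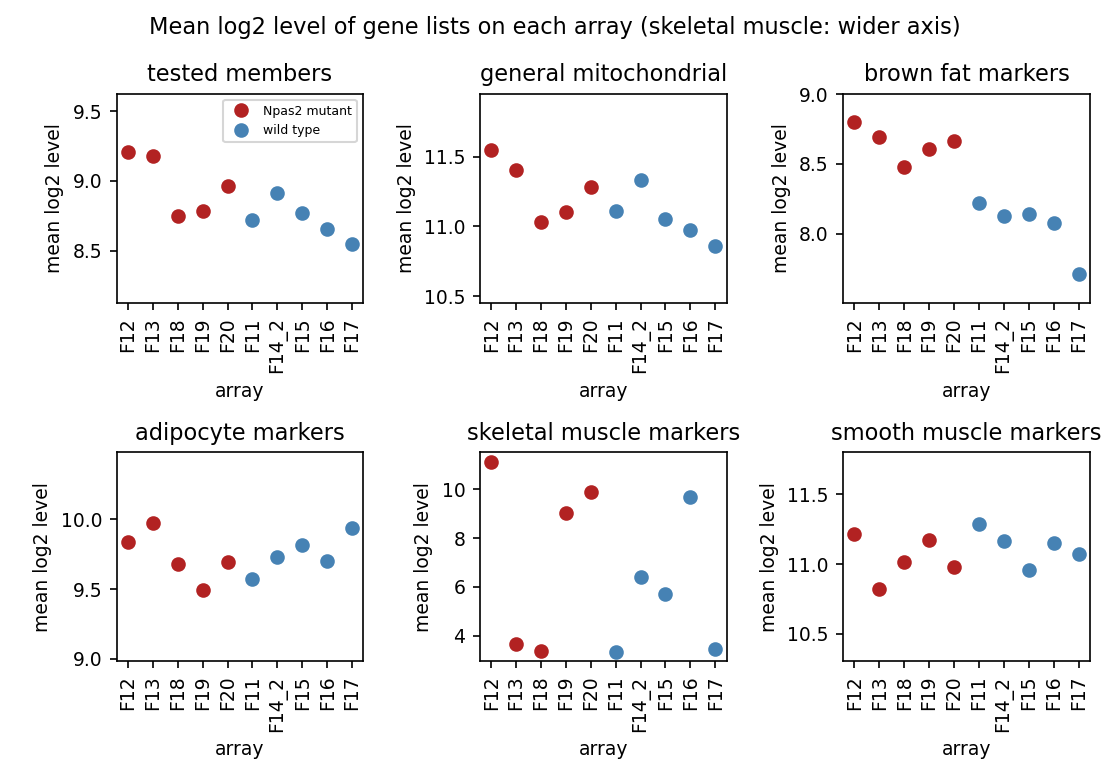
Mean log2 level over the tested genes of each list on each array, mutant (red) left of wild type (blue); the vertical axes span 1.5 log2 units except for skeletal muscle. Mutant arrays have the same order for members and general mitochondrial genes. The mean of the brown fat markers separates the genotypes, and skeletal muscle markers range from 3.35 to 11.14.

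Smooth muscle markers, which define the aortic wall, were bright on all arrays. Their mean was 10.82 to 11.22 in the mutant and 10.96 to 11.29 in wild type, with 7 of 7 tested and 0 called. Of the 7, 6 had a lower mean in the mutant, 3 of them at an unadjusted limma p under 0.05 (Myh11, Cnn1 and Smtn). Myh11 had no overlap, and Des had a higher mean (0.48). Macrophage markers, 5 of 5 tested, had higher means in the mutant, at 6.82 to 7.34 against 6.63 to 6.85 in wild type, with 3 at an unadjusted p under 0.05 and 0 called. Endothelial markers lay at 5.67 to 6.06 in the mutant and 5.73 to 6.01 in wild type, and fibroblast markers at 10.52 to 10.83 in the mutant and 10.34 to 10.81 in wild type. The 7 tested adipocyte markers lay at a mean of 9.49 to 9.97 in the mutant and 9.58 to 9.94 in wild type, but went both ways. At an unadjusted limma p under 0.05, Cidec, a lipid droplet protein, was higher (0.28) and Lep, the gene of leptin, and Plin4, a lipid droplet protein, were lower (-0.78 and -0.22), with 0 called. With their mean as a covariate the median change of the members was 0.25 and Acad11 was again called. Skeletal muscle markers spread widely, at 3.39 to 11.14 in the mutant and 3.35 to 9.69 in wild type, and were high on mutant F12, F19 and F20 and on wild-type F16. Without these 4 arrays, a choice made after the data were seen, 31 of 34 members had a higher mean over 2 mutant and 4 wild-type arrays, with a median change of 0.20 and 2 at an unadjusted limma p under 0.05. This fit called 0 of all 22340 probe sets. Acad11 then had a change of 0.44 ± 0.07 (SE), as large as with all arrays, and an adjusted p of 0.498. Cardiac markers averaged 4.56 to 7.22 in the mutant and 4.59 to 6.46 in wild type over the 4 of 8 that could be tested, with Nppa, Myl7, Tnni3 and Mybpc3 too dim on most arrays. The part of each of these tissues in the members' levels was not tested beyond these fits.

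**Figure D5:**
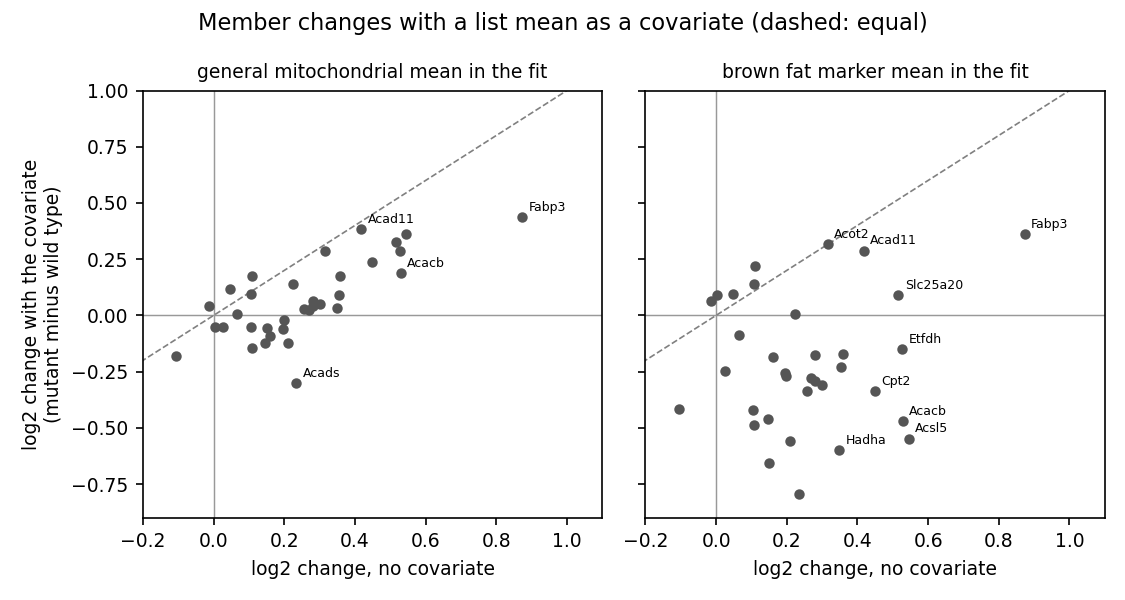
Log2 change of each member without a covariate (horizontal) against its change with the mean of the general mitochondrial genes (left) or of the brown fat markers (right) in the fit (vertical); the dashed line marks equal values. With the general mitochondrial mean 22 of 34 points lie above 0, with the brown fat mean 10 of 34, and Acad11 lies above 0 in both.

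Npas2 itself did not check the genotype labels. Its brighter probe set had levels of 3.38 to 3.47 in the mutant and 3.44 to 3.96 in wild type (change -0.28, limma adjusted p = 0.249), and the part of the transcript it reads is not given in the sources used here. The upper quartile of the 10 arrays ran from 5.40 to 5.55 and correlations between arrays from 0.986 to 0.996.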

How the data were processed

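Total RNA of aorta was hybridised to 10 Affymetrix MOE 430V2 arrays, per the labels. The authors deposited log2 values, 1 per probe set and array; GCRMA and MAS5 are listed, per the submitters' processing notes, without a version, and which of them made the table is not stated. That the scale is log2 was read from the values (1.10 to 14.71). No scan or extraction date was at hand, so no batch was modelled.

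The table held 45101 probe sets, 64 of them controls; 34958 had 1 gene and 932 several, a few controls among them, and 9160 others had none. Symbols were taken by gene identifier from the GRCm38.p6 names for 34754 of the probe sets with 1 gene, whether or not the symbol changed. Probe sets above their array's median on at least 5 of 10 arrays were tested (22340), mutant minus wild type, with limma 3.58.1 in R 4.3.3 (lmFit, eBayes, two-sided), adjusted by Benjamini-Hochberg over all of them. The test was tried on simulated data with noise drawn independently for each probe set. Members here varied together across arrays, so that trial does not cover their joint behaviour. The number of arrays limits the precision, and intervals are at 95%.

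Members and lists were chosen with earlier results of these data known. Every member is named; array values are given for members called, not overlapping, among the 6 largest changes or brightest in their role, and of the lists of related genes (other fatty acid handling, peroxisomal, general mitochondrial) the called genes and the 4 smallest p-values. Array values of Acadm are given as well, although it meets none of these rules. That choice, Hadha and Acads under covariates, the regulators and the marker genes were picked after values were seen. Alternatives were filters, normalisation, variance models, array weights, an ordinary one-way analysis, an adjusted p of 0.1, probe set choice, list means as covariates and leaving out each array.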

Additional observations from a re-analysis of the deposited data

Results flagged for a closer look

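In 4 of the 70 groups of 5 arrays examined (35 members, 2 genotypes), 1 array stood far from the other 4 by Dixon's criterion, which chance reaches in about 1 group in 20. Mlycd was at 5.36 on mutant F12, with the next mutant array at 4.51. Etfb was at 10.80 on wild-type F14_2, with the next at 10.31, and Acot13 at 8.95 on the same array, with the next at 8.48. Acad9 was at 6.14 on wild-type F15, with the next at 5.82.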

How the results depend on the processing

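The count of called members, 1 in the fit reported, was 2 with a filter at the 75th percentile and at an adjusted p of 0.1, where Slc25a20 joined Acad11 (adjusted p = 0.0479 and 0.0942). It was 0 without _x_at and _s_at probe sets, with the brown fat, skeletal muscle or general mitochondrial mean as a covariate and without the 4 arrays with most skeletal muscle signal, and 0 to 1 when each array was left out. It was 1 under no filter, quantile normalisation, median centring, the other variance model, array weights, the one-way analysis, averaged probe sets and the adipocyte covariate. Among the 30 neighbouring genes 1 was called at the 75th percentile and 1 at an adjusted p of 0.1, against 0. With the brown fat covariate 10 members had a higher mean and the median change was -0.25; with the general mitochondrial covariate the median was 0.0417. The other settings kept both on the same side. Members with no overlap, 3 as reported, numbered 2 with median centring and with averaged probe sets, and 4 with quantile normalisation. They numbered 3 to 6 when each array was left out (6 without wild-type F15, 5 without mutant F18 or wild-type F14_2) and 5 without the 4 arrays. Fewer arrays make it easier for groups not to overlap. The share of all probe sets was not counted at these settings, so these counts do not show a stronger separation. Probe sets called among all those tested were 48 as reported, 13 with the one-way analysis, 141 at the 75th percentile, 17 with no filter, 191 at an adjusted p of 0.1 and 9 to 43 when each array was left out. Where the members' call was lost they were 0 with the brown fat covariate, 0 without the 4 arrays, 7 with the skeletal muscle covariate, 9 with the general mitochondrial covariate and 35 without _x_at and _s_at probe sets. The setting without _x_at and _s_at probe sets leaves out the probe set on which Acad11 was called. The causes at the other settings were not tested. No paired analysis was possible because the genotypes share no replicate identifiers.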
